A study of Mus musculus with 15 samples.

Results

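Transcripts of 10 subunits of Polycomb repressive complex 1 (PRC1) were followed across mouse embryonic stem cells in which one or both of the cohesin subunits STAG1 and STAG2 were targeted. The genes were taken by symbol: the catalytic subunits Ring1 and Rnf2, the PCGF subunits Bmi1, Pcgf1 and Pcgf6, the chromobox subunits Cbx2, Cbx7 and Cbx8, and the accessory subunits Rybp and Kdm2b. They are 10 of the 23412 genes in the count tables. All 10 passed the filter on low counts and are among the 14508 genes tested.

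PRC1 is a chromatin complex that attaches a single ubiquitin to histone H2A and keeps developmental genes silent in pluripotent cells. Every form of it pairs a RING protein with a PCGF protein. Canonical forms add a CBX protein that reads the histone H3 methylation laid down by Polycomb repressive complex 2 (PRC2), whereas variant forms add RYBP or its paralog YAF2, and the PCGF1 form is brought to unmethylated CpG islands by KDM2B.

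The cells are the male v6.5 line, and every library came from cells transfected with an siRNA at 50 nM and harvested after 48 h. The 5 groups, with 3 libraries each, are wild-type cells with the control siRNA siGLO (WT siGLO), a Stag1 knockout with siGLO (Stag1-KO siGLO), wild-type cells with an siRNA against Stag1 (WT siStag1), a Stag2 knockout with siGLO (Stag2-KO siGLO) and the same knockout with siStag1 (Stag2-KO siStag1). Each knockout is 1 CRISPR-Cas9 clone, so an effect of the gene cannot be told apart from a property of the clone. Comparisons with WT siGLO share its 3 libraries.

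Libraries held between 14982560 and 19070126 counts in genes, with a median of 17700059, so that 3 counts correspond to between 0.157 and 0.200 CPM (counts scaled to the library total), a limit that covers counting error only. Stag2 lay between 663 and 739 normalized counts in Stag2-KO siGLO and between 2329 and 2334 in WT siGLO. In Stag2-KO siStag1 it lay between 851 and 940.5, below WT siGLO but higher than in Stag2-KO siGLO by a log2 fold change of 0.39 ± 0.12 (edgeR adjusted p = 0.0808). The siRNA lowered Stag1 from between 2012 and 2288 normalized counts in WT siGLO to between 353 and 517 in WT siStag1, and it left between 629 and 781 in Stag2-KO siStag1. In Stag1-KO siGLO, Stag1 counts lay between 1826 and 2368, and since that clone carries an in-frame deletion, counts do not check its label. Stem cell identity was checked with 10 pluripotency markers, all of which were detected and which summed to between 101513 and 109287 normalized counts in WT siGLO and between 54769 and 70486 in Stag2-KO siStag1.

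A normalized count is the read count of a gene scaled to a common library size, and a level per kb divides it by the summed exon length. Per kb, the order of the subunits in WT siGLO was Rnf2 with 591 ± 60.6 (SD, n = 3), Cbx7 with 503 ± 37.1, Rybp with 413 ± 24.2, Pcgf6 with 267 ± 16.7, Kdm2b with 240 ± 10.2, Cbx2 with 178 ± 7.29, Pcgf1 with 114 ± 23.3, Ring1 with 64.9 ± 3.04, Bmi1 with 41.1 ± 4.81 and Cbx8 with 6.33 ± 2.83. Only the neighbours Rnf2 and Cbx7 had ranges that overlapped. In the other 4 groups Cbx7 came before Rnf2. The levels per kb were 684 ± 90.1 and 475 ± 62.5 in Stag1-KO siGLO, 533 ± 26.7 and 521 ± 19.2 in WT siStag1, where the ranges overlapped, 587 ± 89.6 and 456 ± 21.7 in Stag2-KO siGLO, and 566 ± 46.4 and 402 ± 9.85 in Stag2-KO siStag1. In Stag2-KO siStag1 the middle of the order closed up: Rybp, Kdm2b, Pcgf6 and Cbx2 lay between 306 and 265 per kb with each range overlapping the next, and so did Ring1, Pcgf1 and Bmi1, between 87.5 and 82.6 per kb.

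**Figure D1:**
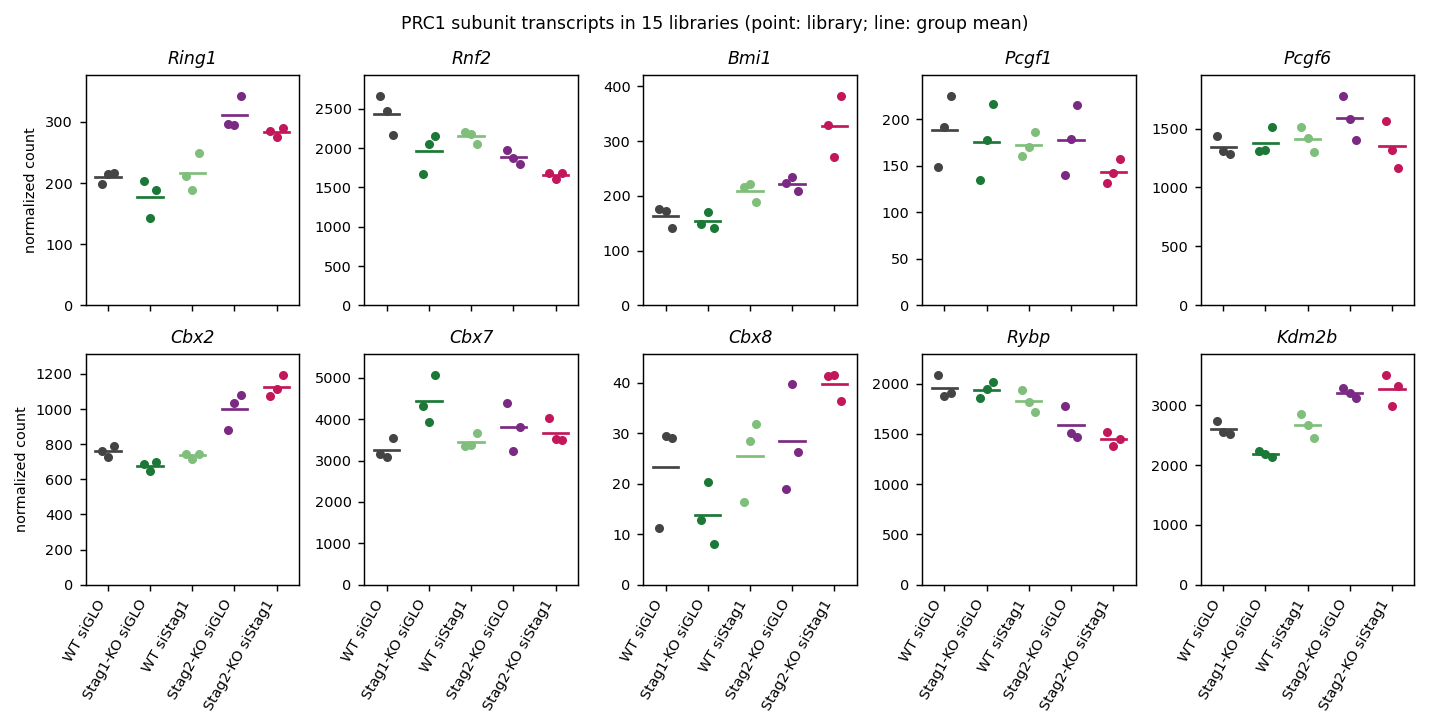
Normalized counts of the 10 PRC1 subunits (vertical axes, each from 0) in the 15 libraries, by group (horizontal axes). Points are libraries and lines are group means of 3 libraries. Ring1, Bmi1, Cbx2 and Kdm2b are higher in both Stag2-KO groups than in WT siGLO, Rnf2 and Rybp are lower there, and Cbx7 is highest in Stag1-KO siGLO.

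The calls on the 10 subunits were made with edgeR over all tested genes at an adjusted p under 0.1. Against WT siGLO, 6 of 10 subunits changed in Stag2-KO siGLO, 4 higher and 2 lower, where 28.3% of all tested genes changed, 13.9% higher and 14.4% lower. With the replicate number as a block, Pcgf6 and Cbx7 also passed, making 6 higher and 2 lower, where 39.4% of all genes passed. In Stag1-KO siGLO 3 of 10 changed, 1 higher and 2 lower, against 20.0% of all genes, 10.1% higher and 9.93% lower. The same counts of subunits were found with the block, where 30.6% of all genes passed. In Stag2-KO siStag1 6 of 10 changed, 4 higher and 2 lower, against 43.9% of all genes, 22.6% higher and 21.3% lower. In WT siStag1 none of the 10 changed by edgeR or by DESeq2, 1 of 10 had an unadjusted p under 0.05 (6.36% of all genes did), and 0.248% of all genes changed (1.63% with the block, again without a subunit). The 3 libraries of a group did not overlap those of WT siGLO for 4 of 10 subunits in Stag1-KO siGLO (31.7% of all genes), 6 in Stag2-KO siGLO (35.7%), 1 in WT siStag1 (15.5%) and 7 in Stag2-KO siStag1 (47.3%). Over the 4 comparisons without the block, 7 of 10 subunits changed at least once, as did 54.3% of all genes, and Pcgf1, Pcgf6 and Cbx8 were the 3 that did not. With the block, Pcgf6 passed in Stag2-KO siGLO, and Pcgf1 and Cbx8 passed in Stag2-KO siStag1. The median log2 fold change of the 10 was -0.13 in Stag1-KO siGLO, 0.27 in Stag2-KO siGLO, 0.04 in WT siStag1 and 0.25 in Stag2-KO siStag1, beside medians over all tested genes of -0.01, 0.01, -0.00 and 0.01.

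**Figure D2:**
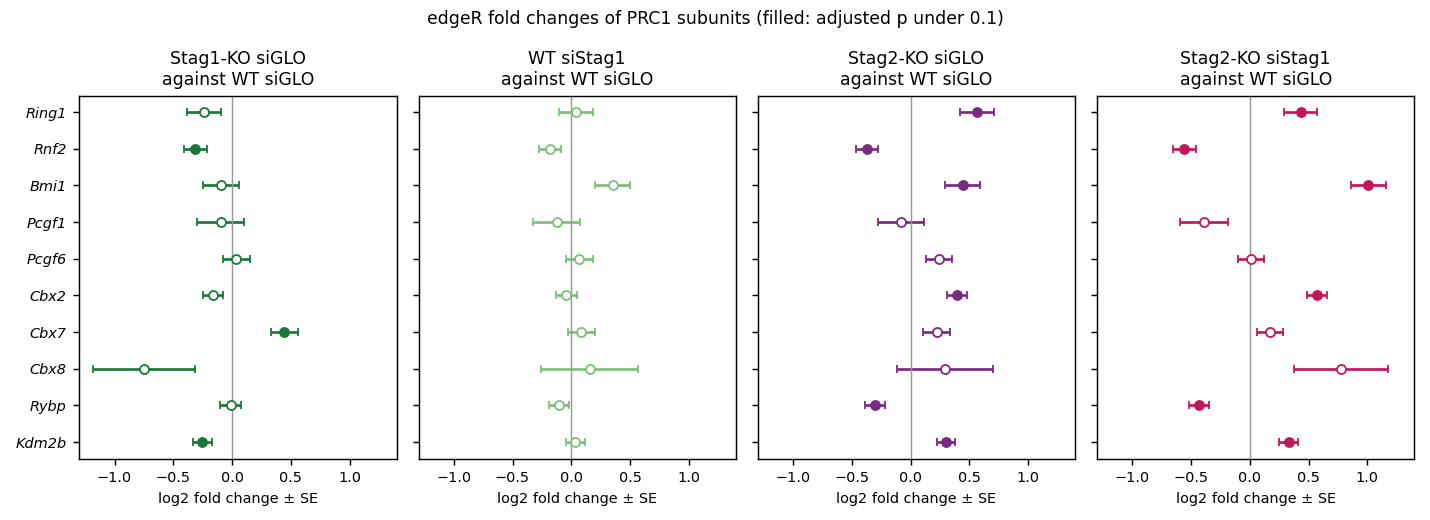
Log2 fold changes (horizontal axes) with standard errors from edgeR for each subunit (rows) in the 4 comparisons with WT siGLO. Filled points passed an adjusted p of 0.1. Bmi1 in Stag2-KO siStag1, at 1.01, lies farthest from 0, and no point is filled for WT siStag1.

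The 2 catalytic subunits are alternatives for the same place in the complex, and RNF2 (also called RING1B) is regarded as the main H2A ubiquitin ligase of embryonic stem cells. Both genes start in CpG-rich sequence, as does Bmi1, the subunit with the largest change against WT siGLO. Promoter sequences from RefSeq (GRCm38.p6) matched 7 of the 10 subunits: Ring1, Rnf2, Bmi1, Pcgf6, Cbx7, Cbx8 and Kdm2b. The 120 bases directly before the annotated start are shown for the first 3, with every CG dinucleotide in capitals. They were picked because Ring1 and Rnf2 fill the same place and moved in opposite directions in the Stag2-KO groups, and Bmi1 had the largest change against WT siGLO. They are given 5′ to 3′ on the strand of the gene and lie at chr17:34024681-34024800 (minus strand), chr1:151500992-151501111 (minus strand) and chr2:18676898-18677017 (plus strand).
Ring1: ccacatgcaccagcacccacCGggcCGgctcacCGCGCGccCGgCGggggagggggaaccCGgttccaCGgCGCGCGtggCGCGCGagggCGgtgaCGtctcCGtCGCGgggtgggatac
Rnf2: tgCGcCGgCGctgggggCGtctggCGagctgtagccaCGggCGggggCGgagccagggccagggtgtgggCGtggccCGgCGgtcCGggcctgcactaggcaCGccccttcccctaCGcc
Bmi1: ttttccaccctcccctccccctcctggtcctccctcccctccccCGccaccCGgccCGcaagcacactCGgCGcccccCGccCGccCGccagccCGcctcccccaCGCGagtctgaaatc

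These stretches hold 20 (Ring1), 14 (Rnf2) and 11 (Bmi1) CG dinucleotides. Over 250 bases before the start the counts were 30, 20 and 21, against a median of 6 over 32851 RefSeq promoters. As many as that were found in 5.94%, 17.9% and 16.3% of all promoters. CG is its own reverse complement, so both strands give the same count. Pcgf6 had 14, Cbx7 23 and Cbx8 22, and the 4 annotated starts of Kdm2b had 12 to 38.

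Ring1 measured 199, 216 and 217 normalized counts in WT siGLO, 297, 295 and 343 in Stag2-KO siGLO, and 286, 276 and 290 in Stag2-KO siStag1. All 6 libraries of the Stag2-KO clone were above all 9 libraries of the other groups, the highest of which was 249 in WT siStag1. The log2 fold change against WT siGLO was 0.57 ± 0.14 (SE; edgeR adjusted p = 0.0111) in Stag2-KO siGLO and 0.43 ± 0.14 (adjusted p = 0.027) in Stag2-KO siStag1. In Stag1-KO siGLO it measured 203, 143 and 188, overlapping WT siGLO, at a log2 fold change of -0.24 (edgeR adjusted p = 0.305).

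Rnf2 moved the other way. It measured 2670, 2469 and 2173 normalized counts in WT siGLO, 1977, 1875 and 1799 in Stag2-KO siGLO, and 1680, 1610 and 1681 in Stag2-KO siStag1. Neither Stag2-KO group overlapped WT siGLO, and Stag2-KO siStag1 had the lowest mean of the 5 groups. Rnf2 fell by 0.37 ± 0.10 on the log2 scale in Stag2-KO siGLO (edgeR adjusted p = 0.0131) and by 0.56 ± 0.10 in Stag2-KO siStag1 (adjusted p = 0.000347). In Stag1-KO siGLO it measured 1668, 2057 and 2157, all under the lowest WT siGLO library, and fell by 0.31 ± 0.10 (edgeR adjusted p = 0.0401). That last call was lost without WT siGLO replicate 1 (adjusted p = 0.164), WT siGLO replicate 2 (0.116) or Stag1-KO siGLO replicate 1 (0.175).

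Ring1 supplied 8.67, 10.0 and 11.3% of the summed per-kb level of Ring1 and Rnf2 in WT siGLO. The share was 16.1, 16.7 and 19.5% in Stag2-KO siGLO and 17.8, 17.9 and 18.0% in Stag2-KO siStag1, and Rnf2 supplied the larger part in every library. Neither group overlapped WT siGLO. With 3 libraries against 3 the exact two-sided permutation p is 0.1 at its smallest, which both comparisons reached (adjusted p = 0.267 over the 32 share comparisons made). No share of any family could therefore have an adjusted p under 0.1, so these tests cannot decide whether a share changed. The Ring1 share in Stag1-KO siGLO, between 8.13 and 13.4%, overlapped WT siGLO.

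The PCGF subunits define the forms of PRC1. Canonical complexes hold BMI1 (PCGF4) or PCGF2, while PCGF1 marks the KDM2B form and PCGF6 the form that binds germline promoters with MGA, E2F6 and L3MBTL2. Bmi1 had the lowest level per kb of the 3 in WT siGLO and the largest change in Stag2-KO siStag1. It measured 176, 173 and 141 normalized counts in WT siGLO, 223, 235 and 208 in Stag2-KO siGLO, and 330, 271 and 383 in Stag2-KO siStag1. These 3 groups did not overlap, and their order was WT siGLO, Stag2-KO siGLO, Stag2-KO siStag1. The log2 fold change against WT siGLO was 0.44 ± 0.15 in Stag2-KO siGLO (edgeR adjusted p = 0.0476) and 1.01 ± 0.15 in Stag2-KO siStag1 (adjusted p = 8.04e-05), a 2.01-fold level. The Stag2-KO siGLO call was lost without WT siGLO replicate 3 (adjusted p = 0.179) or Stag2-KO siGLO replicate 2 (0.134).

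Bmi1 was the one subunit that changed when siStag1 was added to Stag2-KO cells, by 0.56 ± 0.15 on the log2 scale (edgeR adjusted p = 0.0426), in a comparison where 6.37% of all genes changed, 2.98% higher (14.1% in all with the replicate number as a block, where Bmi1 was again the 1 subunit called). The groups did not overlap for 3 of 10 subunits, against 19.3% of all genes. The call was lost without Stag2-KO siGLO replicate 3 (adjusted p = 0.128) or Stag2-KO siStag1 replicate 3 (0.225), and when only the 6 libraries compared were fitted (0.193). In wild-type cells the same siRNA gave 216, 221 and 189 normalized counts, all above WT siGLO, at a log2 fold change of 0.35 ± 0.15 that did not pass (edgeR adjusted p = 0.711). Bmi1 was the 1 subunit whose WT siStag1 and WT siGLO libraries did not overlap. The effect of siStag1 on Bmi1 differed between Stag2-KO and wild-type cells by 0.21 ± 0.21, which did not pass (edgeR adjusted p = 0.980). None of the 10 subunits passed that test of the difference by edgeR or DESeq2, none had an unadjusted p under 0.05 (5.80% of all genes did), and 0.159% of all genes passed (0.951% with the block, again without a subunit).

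Pcgf1 measured between 149 and 226 normalized counts in WT siGLO and between 131 and 158 in Stag2-KO siStag1, and Pcgf6 between 1282 and 1440 and between 1169 and 1566. Neither changed in any of the 4 comparisons with WT siGLO when the replicate number was not a block. With it as a block, Pcgf1 fell by 0.38 in Stag2-KO siStag1 (edgeR adjusted p = 0.027). Pcgf6 measured 1781, 1583 and 1404 in Stag2-KO siGLO, a log2 fold change of 0.24 ± 0.11 (edgeR adjusted p = 0.145, or 0.0591 with the replicate number as a block). Without WT siGLO replicate 1, Pcgf1 in Stag2-KO siStag1 fell by 0.54 (edgeR adjusted p = 0.0613). Within the 6 PCGF genes, the per-kb share of Bmi1 was 4.55% ± 0.60 (SD, n = 3) in WT siGLO, 5.61% ± 0.42 in Stag2-KO siGLO and 8.74% ± 1.29 in Stag2-KO siStag1. In WT siStag1 it was 5.71% ± 0.46. None of these 3 groups overlapped WT siGLO, and each reached the smallest exact permutation p of 0.1 (adjusted p = 0.267). Pcgf2, the other PCGF gene of canonical complexes, supplied 30.2% ± 2.07 in WT siGLO, 35.3% ± 2.75 in Stag2-KO siGLO and 33.4% ± 0.59 in Stag2-KO siStag1.

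**Figure D3:**
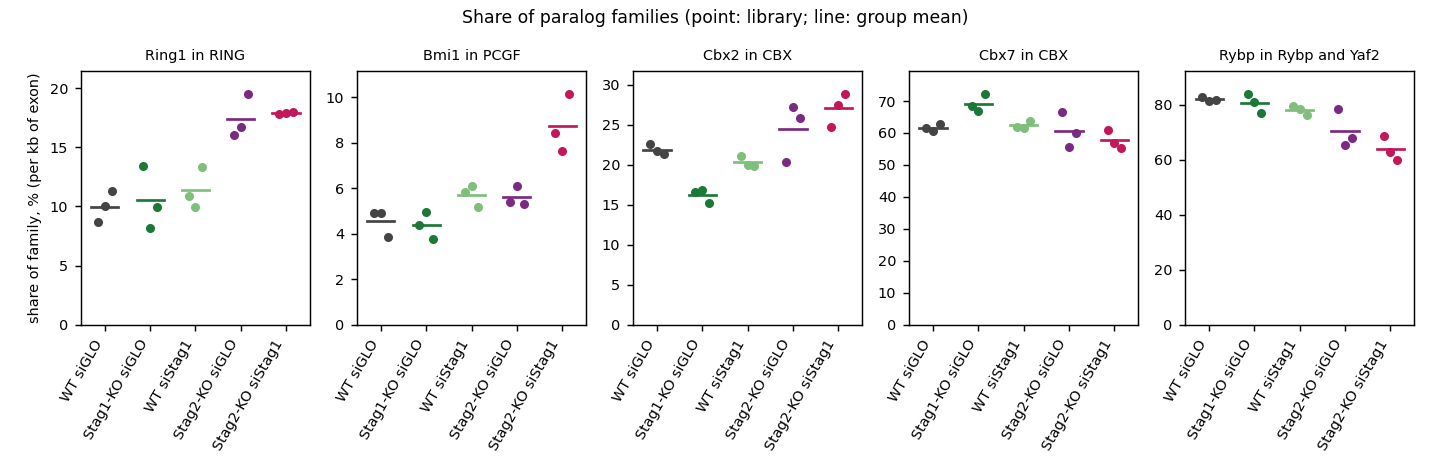
Share of a subunit in the summed per-kb level of its paralog family, in percent (vertical axes, from 0), for the 15 libraries by group (horizontal axes). Points are libraries and lines are means of 3. The Ring1 share is highest in both Stag2-KO groups, the Bmi1 share is highest in Stag2-KO siStag1, Cbx7 is highest and Cbx2 lowest in Stag1-KO siGLO, and the Rybp share is lowest in Stag2-KO siStag1.

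CBX proteins carry the chromodomain of canonical PRC1. CBX7 is the main one in pluripotent cells, and CBX2 and CBX8 are known to gain weight as cells differentiate. Cbx2 measured 762, 727 and 789 normalized counts in WT siGLO, 883, 1032 and 1079 in Stag2-KO siGLO, and 1072, 1115 and 1195 in Stag2-KO siStag1. Every library of the Stag2-KO clone was above every other library. The log2 fold change was 0.39 ± 0.09 (edgeR adjusted p = 0.00525) and 0.57 ± 0.09 (adjusted p = 0.00012). In Stag1-KO siGLO Cbx2 measured 689, 646 and 701, all below WT siGLO, at a log2 fold change of -0.16 ± 0.09 that did not pass (edgeR adjusted p = 0.256).

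Cbx7 measured 3160, 3088 and 3537 normalized counts in WT siGLO and 4318, 3923 and 5074 in Stag1-KO siGLO. The 2 groups did not overlap, and Cbx7 rose by a log2 fold change of 0.44 ± 0.11 (edgeR adjusted p = 0.0155), the only subunit that rose in the Stag1-KO clone. It measured 4386, 3223 and 3815 in Stag2-KO siGLO, overlapping both, at 0.22 ± 0.11 (edgeR adjusted p = 0.178, or 0.0748 with the replicate number as a block). Within the 5 CBX genes, the Cbx7 share was 61.5% ± 1.07 (SD, n = 3) in WT siGLO and 69.2% ± 2.76 in Stag1-KO siGLO, while Cbx2 had 21.9% ± 0.65 and 16.2% ± 0.88 and in Stag2-KO siStag1 27.1% ± 2.10. The Cbx2 share was also lower in WT siStag1, at 20.3% ± 0.68. Each of these 4 shifts was without overlap with WT siGLO and reached the smallest exact permutation p of 0.1 (adjusted p = 0.267).

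Cbx8 was near the limit of measurement, with 11, 29 and 29 normalized counts in WT siGLO, 13, 20 and 8 in Stag1-KO siGLO, 16, 29 and 32 in WT siStag1, 19, 40 and 26 in Stag2-KO siGLO, and 41, 42 and 36 in Stag2-KO siStag1. The last group lay above WT siGLO without overlap, but the log2 fold change of 0.78 ± 0.40 did not pass (edgeR adjusted p = 0.142). With the replicate number as a block it was 0.84 and passed (edgeR adjusted p = 0.0519). Cbx8 lies beside Cbx2 on chromosome 11 (Cbx2 at chr11:119022962-119031270 and Cbx8 at chr11:119036305-119040969, GRCm38).

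The genes around Cbx7 in the Stag1-KO clone were examined because 16 of the 43 tested genes within 1 Mb of it were lower and 3 were higher. The lower genes formed one run at lower coordinates than Cbx7, from Txn2 to Dmc1 (chr15:77915047-79605109), whose bounds were chosen after the values were seen. In it 31 of 39 tested genes fell in Stag1-KO siGLO and none rose, with a median log2 fold change of -0.77, where 9.93% of all tested genes fell. The median was between -0.84 and -0.68 when any 1 of the 6 libraries was left out. In Stag2-KO siGLO the same 39 genes had a median of 0.04, with 4 higher and 6 lower, and in WT siStag1 the median was -0.01 with none changed at either sign.

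The run ended 311 kb before Cbx7. Of the 11 tested genes between them none passed in either direction in Stag1-KO siGLO, and their median was 0.08. Among the genes just beyond Cbx7, named after their values were seen, Pdgfb rose by a log2 fold change of 1.08 ± 0.24 (edgeR adjusted p = 0.00611), Syngr1 by 0.55 ± 0.12 (adjusted p = 0.00551) and Mgat3 by 0.43 ± 0.14 (adjusted p = 0.0555). Rpl3 (-0.02), Snord43 (-0.46) and Tab1 (0.18), which lie among them, did not pass. Within 0.5 Mb of Cbx7, 3 of 26 tested genes rose and 4 fell. The part of the run from Txn2 to Dmc1 in the Cbx7 value was not tested. Within 1 Mb of Bmi1, 4 of 9 tested genes also fell in the Stag1-KO clone and none rose, with a median of -0.20. Around Ring1 4 of 75 tested genes fell and 8 rose, around Pcgf6 2 of 33 fell and 8 rose, and around each of Cbx2 and Cbx8 2 of 23 fell and 5 rose. Around the other subunits between 0 and 3 fell and between 0 and 3 rose. Of all tested genes 9.93% fell and 10.1% rose.

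**Figure D4:**
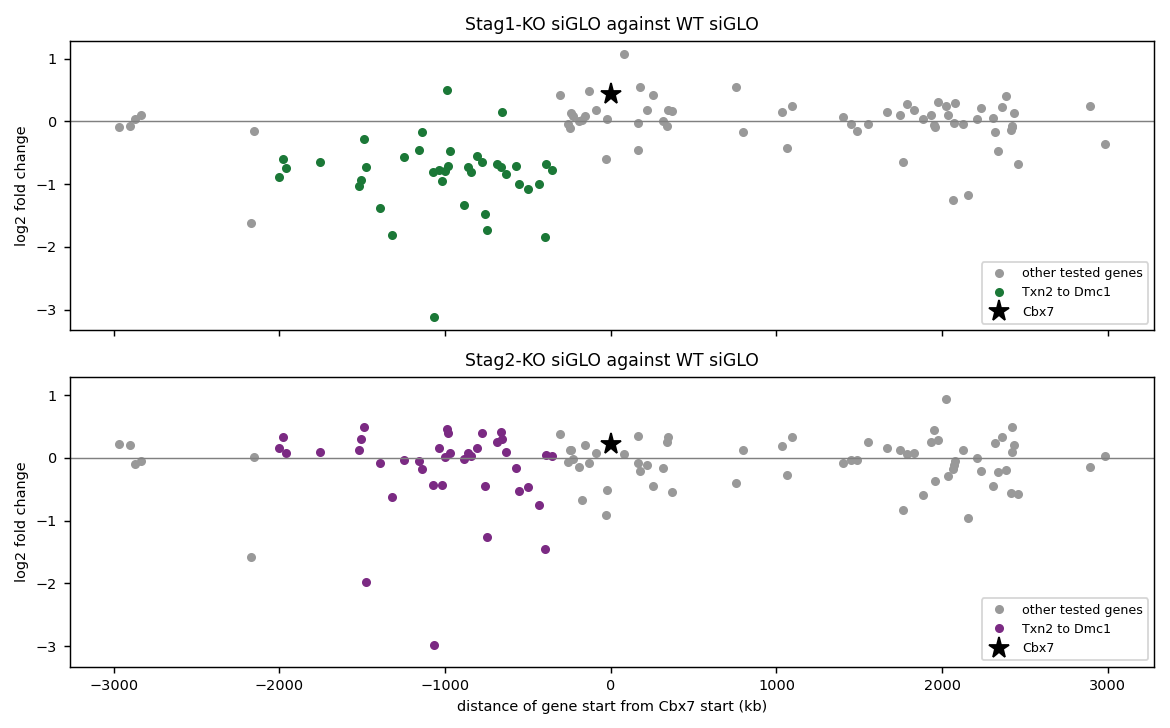
Log2 fold change against WT siGLO (vertical axes) of the tested genes on either side of Cbx7, in Stag1-KO siGLO (upper) and Stag2-KO siGLO (lower). The horizontal axis is the distance in kb of the lowest coordinate of each gene from that of Cbx7, called start on the axis whatever the strand. Coloured points are the 39 genes from Txn2 to Dmc1, with medians of -0.77 and 0.04, and the star is Cbx7 at 0.44 and 0.22.

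RYBP is the stimulating subunit of variant PRC1, and YAF2 can take its place. Rybp measured 2088, 1873 and 1911 normalized counts in WT siGLO, 1779, 1512 and 1466 in Stag2-KO siGLO, and 1522, 1376 and 1448 in Stag2-KO siStag1. Both Stag2-KO groups lay below WT siGLO and below Stag1-KO siGLO, which measured 1855, 1949 and 2015. Rybp fell by 0.30 ± 0.09 on the log2 scale in Stag2-KO siGLO (edgeR adjusted p = 0.0216) and by 0.43 ± 0.09 in Stag2-KO siStag1 (adjusted p = 0.0011). In Stag1-KO siGLO the log2 fold change was -0.01 (edgeR adjusted p = 0.949).

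Yaf2 moved against Rybp. It rose by a log2 fold change of 0.63 ± 0.20 in Stag2-KO siGLO (edgeR adjusted p = 0.0357) and 0.95 ± 0.20 in Stag2-KO siStag1 (adjusted p = 0.00154), from 172, 168 and 167 normalized counts in WT siGLO to 194, 317 and 273 and to 273, 320 and 384. Rybp supplied 82.0% ± 0.63 (SD, n = 3) of the per-kb sum of both genes in WT siGLO, 70.6% ± 6.91 in Stag2-KO siGLO and 63.8% ± 4.54 in Stag2-KO siStag1. In WT siStag1 the share was 78.1% ± 1.77. Without scaling to length, the log2 change of the share was -0.17 in place of -0.36 in Stag2-KO siStag1, -0.10 in place of -0.22 in Stag2-KO siGLO and -0.03 in place of -0.07 in WT siStag1. All 3 falls in the per-kb share were without overlap and reached the smallest exact permutation p of 0.1 (adjusted p = 0.267).

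KDM2B brings PCGF1 complexes to CpG islands through its zinc finger. Kdm2b was the 1 subunit that passed the test in opposite directions in the 2 knockout clones. It measured 2730, 2557 and 2524 normalized counts in WT siGLO, 2242, 2183 and 2134 in Stag1-KO siGLO, 3289, 3214 and 3125 in Stag2-KO siGLO, and 3511, 2986 and 3327 in Stag2-KO siStag1. Every Stag1-KO library was below, and every Stag2-KO library above, the whole range of WT siGLO and of WT siStag1 (2861, 2679 and 2456). Kdm2b fell by 0.25 ± 0.08 on the log2 scale in Stag1-KO siGLO (edgeR adjusted p = 0.0439). It rose by a log2 fold change of 0.30 ± 0.08 in Stag2-KO siGLO (adjusted p = 0.0135) and of 0.33 ± 0.08 in Stag2-KO siStag1 (adjusted p = 0.00387). The fall in the Stag1-KO clone was lost without WT siGLO replicate 1 (adjusted p = 0.145) or Stag1-KO siGLO replicate 3 (0.101). Kdm2b has 4 annotated starts, whose transcripts the counts do not separate, and 5.77% of its exon length overlaps Rnf34 on the other strand.

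Set directly against each other, the knockout clones differed at 5 of 10 subunits, where 25.7% of all genes differed, 12.7% higher and 12.9% lower. Stag1-KO siGLO was lower than Stag2-KO siGLO for Ring1 by a log2 fold change of -0.81 ± 0.14 (edgeR adjusted p = 0.00112), for Cbx2 by -0.56 ± 0.09 (0.000463), for Kdm2b by -0.55 ± 0.08 (0.000205) and for Bmi1 by -0.53 ± 0.15 (0.0221). It was higher for Rybp by 0.29 ± 0.09 (0.0295), a call lost without Stag2-KO siGLO replicate 2 (0.104) or 3 (0.114) and when only these 6 libraries were fitted (0.114). For each of these 5 the groups did not overlap, as was so for 31.0% of all genes. Rnf2 was close in both clones, at 0.06 ± 0.10 (edgeR adjusted p = 0.722). With the replicate number as a block, Cbx7 was higher in Stag1-KO siGLO by 0.22 (adjusted p = 0.0732) and Cbx8 lower by -1.03 (0.0471), which made 7 of 10 subunits against 37.3% of all genes.

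In cells given siStag1, the Stag2-KO clone differed from wild type at 6 of 10 subunits, where 37.5% of all genes differed, 19.4% higher and 18.1% lower. The groups did not overlap for 8 of 10, against 45.3% of all genes. Cbx2 was higher by a log2 fold change of 0.61 ± 0.09 (edgeR adjusted p = 9.15e-05), Bmi1 by 0.66 ± 0.15 (0.00327), Ring1 by 0.39 ± 0.14 (0.0492) and Kdm2b by 0.30 ± 0.08 (0.00989), and Rnf2 was lower by -0.37 ± 0.10 (0.00845) and Rybp by -0.33 ± 0.09 (0.00934). The Ring1 call was lost without WT siStag1 replicate 1 (adjusted p = 0.115), WT siStag1 replicate 2 (0.204) or Stag2-KO siStag1 replicate 3 (0.114).

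Over the 15 libraries, correlations are a description of libraries that fall into 5 groups. Among the 4 subunits that rose in the Stag2-KO clone, Pearson's r of log2 CPM ran from 0.61 (Ring1 with Bmi1) to 0.87 (Ring1 with Cbx2), and it was -0.91 for Cbx2 with Rybp. Among all tested genes, those most like Bmi1 were Dgkb (r = 0.957), Gbp9 (0.953) and Cep78 (0.939). Those most like Ring1 were Gps2 (0.933), Vps72 (0.929) and Kctd17 (0.913). Cbx2 was closest to Tmem164 (0.980), Zeb2 (0.973) and Sall2 (0.969), and Rnf2 to Gabpa (0.959), Sucla2 (0.955) and Rpe (0.943).

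Of 21 other PRC1 subunits, 7 rose and 5 fell in Stag2-KO siGLO, 7 rose and 4 fell in Stag2-KO siStag1, 2 rose and 2 fell in Stag1-KO siGLO (4 and 3 with the replicate number as a block), and none passed in WT siStag1 with or without the block. Over all tested genes 28.3%, 43.9% and 20.0% passed in the first 3 of these comparisons (30.6% in Stag1-KO siGLO with the block), and the median log2 fold change of the 21 was 0.11, 0.11 and 0.03. Auts2, a subunit of PCGF3 and PCGF5 complexes, rose by a log2 fold change of 0.78 ± 0.11 in Stag2-KO siGLO (edgeR adjusted p = 0.000118) and 1.11 ± 0.11 in Stag2-KO siStag1 (adjusted p = 1.04e-06), while Pcgf5 fell by 0.90 ± 0.20 (0.00488) and by 0.86 ± 0.20 (0.00295). Scml2, a binding partner of PRC1, rose by 1.29 ± 0.33 in Stag2-KO siStag1 (0.00558). In Stag1-KO siGLO, Scmh1 rose by 0.60 ± 0.14 (0.0103) and E2f6, the DNA-binding partner of PCGF6, by 0.37 ± 0.09 (0.0102), and Bcorl1, a PCGF1 partner, fell by 1.34 ± 0.22 (0.000671).

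PRC2, which writes the mark that CBX proteins read, had 11 subunits tested. In Stag2-KO siStag1 5 fell and 1 rose, in Stag2-KO siGLO 4 fell and 1 rose (4 and 3 with the replicate number as a block), in Stag1-KO siGLO 1 fell and 1 rose (1 and 3 with the block), and in WT siStag1 none passed. The shares over all tested genes were 43.9%, 28.3% (39.4% with the block), 20.0% (30.6%) and 0.248%, and the median log2 fold change of the 11 was -0.46, 0.02, -0.02 and 0.02. Phf19, a chromatin-reading accessory subunit, went opposite ways in the clones: it measured 295, 368 and 370 normalized counts in WT siGLO, 640, 585 and 485 in Stag1-KO siGLO (log2 fold change 0.73 ± 0.16, edgeR adjusted p = 0.00573) and 209, 162 and 173 in Stag2-KO siGLO (-0.92 ± 0.17, 0.00117). In Stag2-KO siStag1 Phf19 fell by 0.97 ± 0.17 (edgeR adjusted p = 0.000281) and Mtf2, a further accessory subunit, by 0.66 ± 0.11 (0.000197). A further list of 6 genes held H2A deubiquitinases, which remove the PRC1 mark, and the ASXL cofactors of the deubiquitinase BAP1. The cofactor genes Asxl1 and Asxl3 rose in Stag2-KO siGLO (0.41 ± 0.08, edgeR adjusted p = 0.00246, and 1.01 ± 0.37, 0.0616) and in Stag2-KO siStag1 (0.57 ± 0.08, 5.18e-05, and 1.69 ± 0.36, 0.00173). The other 4, which include the enzyme genes Bap1, Usp16 and Mysm1, did not pass in these groups (3 of the 6 passed in each with the replicate number as a block). None of the 6 passed in Stag1-KO siGLO or WT siStag1.

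Of 52 developmental genes known as Polycomb targets, 36 had enough counts to be tested. In Stag2-KO siGLO 8 rose and 6 fell, in Stag2-KO siStag1 11 rose and 7 fell, in Stag1-KO siGLO 5 rose and 8 fell, and in WT siStag1 none passed, where 28.3%, 43.9%, 20.0% and 0.248% of all tested genes passed. The median over the 36 was 0.31, 0.46, -0.14 and -0.03, beside 0.01, 0.01, -0.01 and -0.00 over all tested genes. In the same order, 23, 21, 16 and 18 of the 36 had a log2 fold change above 0. The summed level of the 52 genes was 4436 to 4613 normalized counts in WT siGLO, 3522 to 4437 in Stag2-KO siGLO and 3671 to 4316 in Stag2-KO siStag1. It was 3129 to 3476 in Stag1-KO siGLO and 4331 to 4682 in WT siStag1. Pax6, an eye and neural regulator, rose by a log2 fold change of 3.48 ± 0.33 in Stag2-KO siStag1 (edgeR adjusted p = 8.68e-07), with 364, 633 and 719 normalized counts against 75, 38 and 41 in WT siGLO. Hand1, a heart and trophoblast regulator, rose by 2.17 ± 0.51 in Stag1-KO siGLO (edgeR adjusted p = 0.00904), from 19, 27 and 12 to 100.4, 85 and 76. Sox17 and Gata6, endoderm regulators that are also on the list of primitive endoderm markers, had the 2 largest called falls in Stag1-KO siGLO and in Stag2-KO siStag1. Sox17 measured 261, 259 and 268 normalized counts in WT siGLO and 9.84, 18.5 and 17.2 in Stag1-KO siGLO, a log2 fold change of -4.10 ± 0.37 (edgeR adjusted p = 2.67e-06), and it fell by 2.72 ± 0.33 in Stag2-KO siGLO (4.5e-05) and by 2.95 ± 0.34 in Stag2-KO siStag1 (7.17e-06). Gata6 fell by 3.45 ± 0.38 in Stag1-KO siGLO (edgeR adjusted p = 1.67e-05) and by 2.58 ± 0.35 in Stag2-KO siStag1 (3.95e-05). Hoxb1, a hindbrain regulator with at most 0.94 normalized counts in a WT siGLO library, measured 10.6, 39.9 and 15.8 in Stag2-KO siGLO and 31.5, 18.7 and 28.3 in Stag2-KO siStag1. Cdkn2a and Cdkn2b, cell cycle inhibitor genes long known as targets of BMI1 and CBX7 and named here after their values were seen, rose in Stag1-KO siGLO by 1.20 ± 0.27 (edgeR adjusted p = 0.00645) and 1.06 ± 0.26 (0.0132) and did not pass in the other 3 comparisons. Cdkn2a measured 180, 149 and 137 normalized counts in WT siGLO and 409, 340 and 321 in Stag1-KO siGLO.

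Of 17 germline genes known as targets of the PCGF6 form, 15 were in the tables and 14 tested. In Stag1-KO siGLO 1 rose and 6 fell, in Stag2-KO siGLO 1 rose and 5 fell, and in Stag2-KO siStag1 5 rose and 1 fell, where 20.0%, 28.3% and 43.9% of all tested genes passed. In WT siStag1 1 rose (4 with the replicate number as a block), where 0.248% of all tested genes passed (1.63% with the block). It was Ddx4, a germ cell helicase, which rose by a log2 fold change of 0.61 ± 0.11 (edgeR adjusted p = 0.0348). Dazl, a germ cell RNA-binding protein gene, fell by 1.21 ± 0.16 in Stag1-KO siGLO (edgeR adjusted p = 9.99e-05), and Taf7l rose by 1.63 ± 0.41 in Stag2-KO siStag1 (0.00514). The summed level of the 15 genes was 3936 to 4506 normalized counts in WT siGLO, 3155 to 3204 in Stag1-KO siGLO, 2788 to 3334 in Stag2-KO siGLO, 5383 to 5709 in WT siStag1 and 3978 to 4221 in Stag2-KO siStag1.

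Markers of cell states also changed in the groups with a knockout clone. All 8 primitive endoderm markers fell in both clones and in Stag2-KO siStag1, with sums of 32334 to 33048 normalized counts in WT siGLO, 5645 to 7431 in Stag1-KO siGLO, 4964 to 8456 in Stag2-KO siGLO and 4855 to 7689 in Stag2-KO siStag1. Of 8 markers of primed epiblast and streak, 6 rose and 1 fell in each Stag2-KO group, with sums of 5108 to 6647 in WT siGLO, 14541 to 17876 in Stag2-KO siGLO and 17710 to 24517 in Stag2-KO siStag1, and 3 rose in Stag1-KO siGLO (9531 to 12935). Of 10 pluripotency markers, 8 fell and 1 rose in Stag2-KO siStag1, 5 fell and 1 rose in Stag2-KO siGLO, 2 fell and 1 rose in Stag1-KO siGLO (4 and 1 with the replicate number as a block), and 1 fell in WT siStag1 (2 with the block). Over all tested genes, in the same order, 43.9%, 28.3%, 20.0% (30.6% with the block) and 0.248% (1.63%) passed.

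Of 6 neural markers, 3 rose in Stag2-KO siGLO, 2 rose in Stag2-KO siStag1 and 1 rose and 1 fell in Stag1-KO siGLO, where 28.3%, 43.9% and 20.0% of all tested genes passed. Fibroblast feeder markers summed to 348 to 682 normalized counts in WT siGLO and to between 362 and 697 in the other groups, with 1 of 5 tested higher and 1 lower in Stag2-KO siGLO, 1 higher in Stag2-KO siStag1 and none past the threshold in Stag1-KO siGLO (1 lower with the block, where 30.6% of all genes passed), and no marker of any of these lists was at 0 in all libraries. In WT siStag1 no primitive endoderm, primed, neural or fibroblast marker passed, but with the block 2 of the 8 primed markers were higher, where 1.63% of all genes passed. The part of these shifts in the levels of the PRC1 subunits was not tested, and in bulk libraries fewer cells of a type and less RNA per cell cannot be told apart.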

How the data were processed

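RNA-seq was read in 15 libraries of 5 groups of 3. The authors prepared poly(A) libraries, sequenced 150-base paired reads, used STAR to place them on mm10, and the deposited values are unnormalized counts of reads for each gene. A normalized count is the count divided by the TMM-scaled library size, at the mean scaled size. The counting tool, annotation and strand setting are not given in the sources used here, so reads of overlapping genes on opposite strands cannot be told apart: Rnf2 and Trmt1l share 158 exonic bases, Cbx7 and Apobec3 100, Kdm2b and Rnf34 627. Bmi1, Rybp and Kdm2b share stretches of 150 bases with pseudogenes or copies, whose reads the counting may have split. Summary entries that name no gene (up to 13.0% of a library for reads outside genes) were left out.

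Genes were filtered with filterByExpr (minimum count 10), scaled with TMM and tested with edgeR 4.0.16 (glmQLFit and glmQLFTest, R 4.3.3) in 1 fit of all 15 libraries, with p-values adjusted by Benjamini-Hochberg over 14508 genes and a threshold of 0.1. Alternatives were DESeq2 1.42.0, its size factors, library size alone, no filter or a stricter one, only the libraries compared, a threshold of 0.05, the replicate number as a block, and each library left out. The pipeline was tested on simulated data. Deviations of same-numbered libraries from their group means correlated at over 0.1 in all 3 pairs in 5 of 7 comparisons (27 of 30 pairs in all, mean r 0.30). This is the source of the pairing, and it did not hold in the 2 comparisons of Stag2-KO siStag1 with the wild-type groups. The mean r of -0.15 for different numbers follows from taking deviations from group means and is no separate check. Shares of paralog families used counts per kb of exon and exact two-sided permutation tests. Replicates are separate samples by their labels, and p-values measure the spread between them, which may be technical.

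Named genes are the 10 subunits, up to 2 genes per list and direction with the largest called change, and the 3 genes most correlated with each of the 4 subunits with the largest called change. The genes around Cbx7, and Cdkn2a, Cdkn2b and Pcgf2, were named after their values were seen. Values of 1 listed gene that the rule would name are not reported here. The members and lists were chosen with earlier results of these data known. Coordinates and exon lengths are from GENCODE on GRCm38, in which 22996 of 23412 genes were placed.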

Additional observations from a re-analysis of the deposited data

How the results depend on the processing

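Of the subunit calls under each alternative, 362 stayed past the threshold in the same direction, 16 did not and 0 reversed. The 16 came from leaving out 1 library or fitting only the libraries compared and stand beside the results. No scaling moved the median of all genes by more than 0.019 on the log2 scale. Depth limits Cbx8 most: it had 8 to 42 normalized counts, and its log2 fold changes against WT siGLO had standard errors of 0.40 to 0.44. The cause of the shifts below was not tested.

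With the replicate block, genes called were 4443 in Stag1-KO siGLO against WT siGLO (2907 without it), 236 in WT siStag1 (36), 2049 for siStag1 in Stag2-KO (924) and 138 for the difference of the siStag1 effects (23). The block also added Pcgf1 (-0.38) and Cbx8 (0.84) in Stag2-KO siStag1 against WT siGLO, where numbers do not pair, making 5 higher and 3 lower. The share of all genes that passed there with the block is not given here. The block changed no other call of a subunit than those given here and beside the results. DESeq2 called 133 genes in WT siStag1 and 102 for the difference. With only the libraries compared the counts were 126 in WT siStag1, 2406 between the knockouts (3722), 224 for siStag1 in Stag2-KO, with 0 subunits, and 14 for the difference. A threshold of 0.05 gave 22 in WT siStag1 and 548 for siStag1 in Stag2-KO.

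Leaving out 1 library, genes called ranged from 1915 to 2748 in Stag1-KO siGLO and 2524 to 3985 in Stag2-KO siGLO (both lowest without WT siGLO replicate 2), 1 to 15 in WT siStag1, 416 to 1484 for siStag1 in Stag2-KO (lowest without Stag2-KO siStag1 replicate 3, highest without its replicate 1) and 13 to 76 for the difference (highest without Stag2-KO siStag1 replicate 1). Subunits called ranged from 1 to 3 in Stag1-KO siGLO (lowest without WT siGLO replicate 1) and 0 to 2 for siStag1 in Stag2-KO. Pcgf6 passed there without Stag2-KO siStag1 replicate 1.

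Values that changed sign were of subunits that had not passed. On the log2 scale these ranged, on leaving out 1 library, as follows. Stag1-KO siGLO against WT siGLO had Pcgf1 -0.27 to 0.063, Pcgf6 -0.033 to 0.089, Rybp -0.043 to 0.036. Stag2-KO siGLO had Pcgf1 -0.24 to 0.067, Cbx8 -0.043 to 0.51. WT siStag1 had Ring1 -0.070 to 0.13, Pcgf1 -0.27 to 0.024, Cbx8 -0.18 to 0.38, Kdm2b -0.020 to 0.092. Stag2-KO siStag1 had Pcgf6 -0.11 to 0.10. Between the knockouts they were Rnf2 -0.015 to 0.16, Pcgf1 -0.19 to 0.15, for siStag1 in Stag2-KO Cbx7 -0.16 to 0.061, Kdm2b -0.025 to 0.091, for Stag2-KO siStag1 against WT siStag1 Pcgf6 -0.18 to 0.035 and for the difference Rnf2 -0.075 to 0.072, Rybp -0.082 to 0.063, Kdm2b -0.065 to 0.057. Without the filter, Rybp in Stag1-KO siGLO was 0.0052, Pcgf6 in Stag2-KO siStag1 -0.0041 and Pcgf1 between the knockouts 0.0015. With library size alone, the difference was 0.011 for Rnf2 and 0.0087 for Kdm2b. Without length scaling the log2 change of the Rybp share was -0.032 in WT siStag1 and -0.17 in Stag2-KO siStag1.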
